A study of Mus musculus with 6 samples.

Results

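The inner wall of the developing ventricle is lined by trabeculae, muscular ridges whose cardiomyocytes (CMs) divide little and from which the Purkinje fibres of the conduction system arise, whereas the outer compact wall holds working CMs. Trabecular CMs are known for the connexin Gja5, the growth factor Bmp10 and the natriuretic peptide Nppa, and conduction CMs keep Gja5 and use transcription factors such as Etv1, Irx3 and Id2. Candidate CMs of this kind were chosen here among mouse left ventricular CMs by a rule on UMIs (unique molecular identifiers, each of which counts 1 captured RNA molecule). A cell counted as a CM with at least 1 UMI of each of Tnni3, Tnnt2, Actc1 and Tnnc1, and as a member with at least 1 UMI of at least 2 of the 7 markers Gja5, Cacna2d2, Cpne5, Slit2, Sema3c, Bmp10 and Slc16a12. The rule found 472 members among 30733 CMs, 1.54% (exact 95% interval 1.40 to 1.68), of 31156 cells in all. The 11 genes of the rule are described without a test, and the tests below bear on genes the choice did not use.

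The study sorted fixed left ventricular cells of C57BL/6J mice, stained for the myosin heavy chain MYH1 with the antibody MF20 and for DNA, into diploid (2n) and tetraploid (4n) fractions at embryonic day 16.5 (E16.5) and at postnatal days 1 (P1) and 5 (P5). No sample carried a genetic change or a treatment. Each of the 6 groups is 1 droplet-based library pooled from 3 sorts and is named by age and ploidy (P1-4n, for example), and the 2n and 4n fractions of an age came from sorts of the same litters. A difference between ages or ploidies thus has no replicate behind it, whereas members and other CMs were compared within all 6 libraries. Values of 6 libraries below are given by age, with the 2n library before the 4n library of each age. The position of a cell in the wall was not recorded. The libraries held 14714566, 13213992, 16576848, 19714177, 17992590 and 18433034 UMIs in total. Between 17 and 62 cell barcodes were found in both libraries of a pair, and none was a member in both.

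Members made up 2.56, 2.32, 0.422, 1.92, 1.47 and 0.712% of the CMs of the 6 libraries, that is 146 of 5699, 113 of 4880, 31 of 7340, 91 of 4747, 65 of 4413 and 26 of 3654 cells. The exact 95% intervals of counting error ran from 2.17 to 3.01, 1.91 to 2.78, 0.287 to 0.599, 1.55 to 2.35, 1.14 to 1.87 and 0.465 to 1.04%. Both E16.5 libraries and P1-4n thus held the largest shares and P1-2n the smallest. The order of these 3 depended on the rule: with at least 3 markers P1-4n had 0.864% against 0.667 and 0.676% at E16.5, and with Bmp10 left out of the rule 1.62% against 1.56 and 1.56%. Detection of 2 rare transcripts depends on depth, and the median UMIs of all other CMs were 2229, 2169, 1830, 3157, 3765 and 4668. With every CM drawn down to 2000 UMIs and shallower CMs left out, which kept 3447, 2724, 3204, 3737, 3963 and 3484 CMs, members made up 1.89, 1.76, 0.250, 0.910, 0.681 and 0.344%. At 1000 UMIs the shares were 0.706, 0.566, 0.154, 0.350, 0.508 and 0.167%. At either depth the E16.5 libraries stayed the highest and P1-2n the lowest, and the intervals of both E16.5 libraries at 2000 UMIs lay above those of the other 4, whereas at 1000 UMIs those of E16.5-2n (0.5002 to 0.968%) and E16.5-4n (0.370 to 0.828%) overlapped those of P1-4n (0.2003 to 0.568%) and P5-2n (0.318 to 0.768%). Of the 423 cells outside the CM rule, with a median of 1110 UMIs, 6 carried at least 2 markers, 1.42% (0.522 to 3.06). These cells are not of 1 type and endothelial cells among them may express Gja5, so they give no measure of free RNA, whose part in the shares was not tested.

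**Figure D1:**
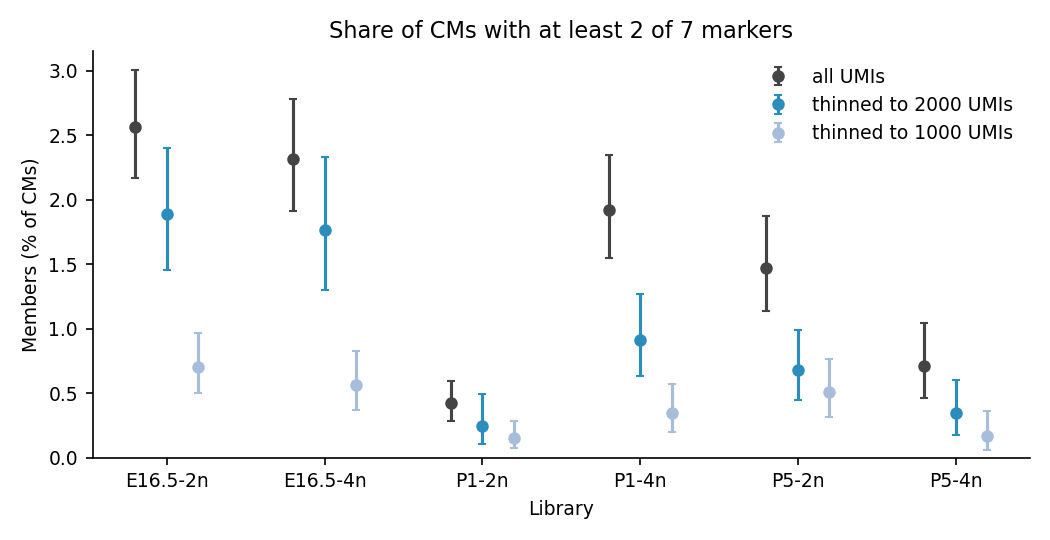
Share of CMs that were members in each library (y axis, percent), from all UMIs and with each CM drawn down to 2000 or 1000 UMIs. Bars are exact 95% intervals of counting error. Both E16.5 libraries lie highest and P1-2n lowest at each depth.

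The 7 markers code for different kinds of protein. Gja5 (connexin 40) forms the gap junctions of fast-conducting and atrial muscle and lies at chr3:96904693-97077416, plus strand (gene positions in GRCm38, GENCODE M21). Cacna2d2 (chr9:107399612-107529343, plus strand) is an auxiliary subunit of voltage-gated calcium channels, and Cpne5 (chr17:29155556-29238167, minus strand) is a calcium-dependent membrane-binding copine. Slit2 (chr5:47983138-48307733, plus strand) and Sema3c (chr5:17574281-17730268, plus strand) are secreted guidance ligands of Robo and of neuropilin and plexin receptors. Bmp10 (chr6:87428994-87437677, plus strand) is a secreted growth factor of the BMP family that keeps embryonic ventricular CMs growing, and Slc16a12 (chr19:34668403-34747289, minus strand) is a monocarboxylate transporter that carries creatine. The 250 bases before the RefSeq start (GRCm38.p6) were searched for the letters AAGTG, the core of the site of NKX2-5, and GGTGTG, the core of T-box sites, on both strands. Both factors are known for their part in trabecular and conduction gene expression. The letters AAGTG stood in 3 of the 7 marker promoters (Gja5, Cpne5 and Sema3c) and in 40.7% of 32851 promoters of the same length, and GGTGTG in none of the 7 and in 16.3% of all. Neither share says more than that these letters stand in the window. The sequences of the connexin and the growth factor most often tied to trabeculae are shown, with that of Nppa, the most abundant gene of the trabecular list, whose promoter held AAGTG at 2 places and GGTGTG at 1. Each is on the plus strand, 5′ to 3′, with these letters in capitals.
Gja5, chr3:97032152-97032401: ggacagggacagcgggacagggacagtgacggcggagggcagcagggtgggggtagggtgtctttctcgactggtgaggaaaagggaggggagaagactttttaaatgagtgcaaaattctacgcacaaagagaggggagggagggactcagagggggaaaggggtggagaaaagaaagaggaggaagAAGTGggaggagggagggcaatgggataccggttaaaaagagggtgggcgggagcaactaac
Bmp10, chr6:87428744-87428993: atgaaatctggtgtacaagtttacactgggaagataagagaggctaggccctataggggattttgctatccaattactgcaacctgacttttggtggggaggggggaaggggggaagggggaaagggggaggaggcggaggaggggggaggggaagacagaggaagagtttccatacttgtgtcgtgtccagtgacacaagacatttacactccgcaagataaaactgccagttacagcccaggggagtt
Nppa, chr4:148000472-148000721: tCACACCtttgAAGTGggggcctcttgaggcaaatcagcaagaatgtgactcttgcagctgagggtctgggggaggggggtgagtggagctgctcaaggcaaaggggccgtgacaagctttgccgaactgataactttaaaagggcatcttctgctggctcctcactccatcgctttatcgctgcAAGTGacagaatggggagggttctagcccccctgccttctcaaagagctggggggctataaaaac

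Most members met the rule narrowly. Of the 472, 319 carried 2 markers, 102 carried 3, 36 carried 4, 10 carried 5 and 5 carried 6, and none carried all 7, while 1758 CMs carried 1 marker and 28503 none. Gja5 and Slit2 were each found in 237 members, Bmp10 in 179, Cacna2d2 in 154, Sema3c in 138, Cpne5 in 123 and Slc16a12 in 100. The pairs seen most often were Gja5 with Slit2 (110 CMs, 14.6% of the CMs with Gja5 and 17.9% of those with Slit2), Slit2 with Bmp10 (98 CMs, 16.0% and 25.3%) and Gja5 with Bmp10 (84 CMs, 11.1% and 21.7%). Cacna2d2 and Cpne5 were the markers most restricted to members: 66.7% of all CMs with Cacna2d2 and 54.7% of those with Cpne5 were members, against 31.3% for Gja5 and 28.5% for Sema3c.

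The mix of markers moved with age. Bmp10 was carried by 52.7, 53.1, 16.1, 29.7, 10.8 and 11.5% of the members of the 6 libraries, and its level over all CMs fell from 14.1 and 12.9 counts per 1000000 UMIs (CPM) in the E16.5 libraries to 0.614 and 0.163 in the P5 libraries. Sema3c went the other way, from 12.3 and 14.2% of the members at E16.5 to 58.5 and 65.4% at P5. Gja5 was found in 40.0 to 65.4% of the members of a library, lowest in P5-2n and highest in P5-4n. In CMs that were not members, Gja5 was found in 3.66, 2.39, 0.835, 1.85, 0.598 and 0.799% and Bmp10 in 1.67, 1.53, 0.274, 0.451, 0.0230 and 0%. E16.5 members were thus chosen mostly through Gja5, Slit2 and Bmp10, and P5 members mostly through Sema3c, Gja5 and Slit2. With 1 library per age and ploidy, this is a description and was not tested.

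How far the markers were found in the same CMs is described by choosing CMs with at least 2 of 6 markers and measuring the seventh, against partners paired 1 to 1 by total UMIs within the same library. All 7 markers were higher in the chosen CMs, in 6 of 6 libraries each. Gja5 had 91.5, 67.1, 138, 119, 64.2 and 103 CPM in the chosen CMs and 18.4, 14.1, 0, 9.84, 11.7 and 0 in the partners. The chosen CMs lay above their partners in every library, and the mean log2 ratio with 0.5 UMI added to each sum was 3.11 ± 1.06 (SD, n = 6 libraries). Bmp10 had 28, 33, 1, 21, 3 and 3 UMIs in the chosen CMs and 1, 6, 0, 1, 0 and 0 in the partners, a mean log2 ratio of 2.94 ± 0.97, with P1-2n resting on 1 UMI. Sema3c had 9, 11, 9, 38, 26 and 17 UMIs against 0, 0, 0, 0, 5 and 0, a mean of 4.44 ± 1.31, so that partners held none of it outside P5-2n. The means were 4.40 ± 1.32 for Cacna2d2 (138 UMIs in the chosen CMs and 4 in partners), 3.34 ± 0.47 for Cpne5 (61 and 4), 3.35 ± 1.12 for Slit2 (152 and 17) and 3.25 ± 1.08 for Slc16a12 (71 and 7). With CMs drawn down to 2000 UMIs the means were 1.32 to 2.90, and the marker was higher in 6 of 6 libraries for Gja5 and Slit2, in 5 for Cacna2d2, Sema3c and Slc16a12, in 4 for Bmp10 and in 3 for Cpne5. With at least 2 UMIs asked of each CM gene Bmp10 was higher in 5 libraries. The markers were named from these data, so no test is given.

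**Figure D2:**
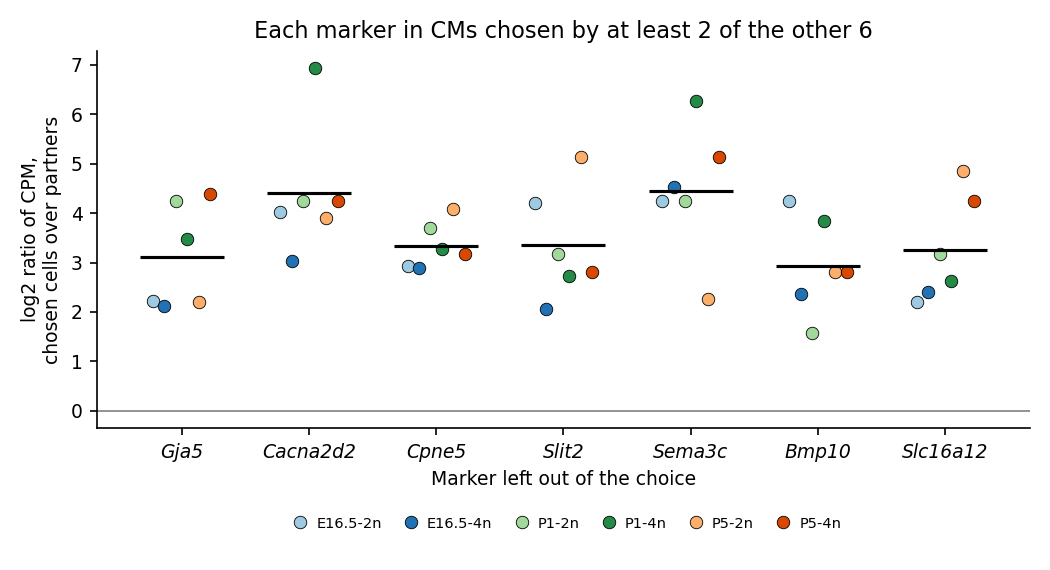
log2 ratio of the CPM of each marker (x axis) in CMs chosen by at least 2 of the other 6 markers over that in depth-matched partners (y axis), 1 point per library and the mean as a line. All 42 points lie above 0, with means from 2.94 for Bmp10 to 4.44 for Sema3c.

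Members were then compared across all genes with 472 partners, CMs that were not members, each paired to a member within 10% of its UMIs in the same library. Partners could carry 1 of the 7 markers, and the markers summed to 16.6, 27.9, 0, 15.8, 36.7 and 15.0 CPM in partners. Summed over cells, the members of the 6 libraries held 484956, 429945, 90426, 634652, 245218 and 132799 UMIs, so that P1-2n and P5-4n carry least weight. The medians of detected genes per cell were 1220.5, 1487, 1014, 1862, 1171 and 1464 in members and 1160.5, 1431, 845, 1698, 1013 and 1250.5 in partners, higher in members of every library at equal depth. Of 3667 genes tested, 544 (14.8%) passed an adjusted p of 0.05 in edgeR's quasi-likelihood test with the library as a block, 234 higher (6.38%) and 310 lower (8.45%) in members. The median log2 fold change over all genes tested was 0.0092. It was 0.12 when the sums were scaled by their totals alone, without the TMM factors of edgeR, and the split was then 366 higher (9.98%) and 160 lower (4.36%). Changes are therefore relative to the bulk of the genes, and small ones near the median depend on that scaling. The filter on low counts asks for 29.6 CPM in at least 6 of the 12 sums, and 42 genes met it in at least 5 member sums and at most 1 partner sum, 23 of them called higher. Those genes were tested through the members where they are high, among them Etv1, Slco3a1, Myl1, Irx2, Crnde and Lyz2 below, and their p-values are to be read with that limit. With a filter on the mean over all sums, which members alone are less able to pass, 206 (8.69%) of 2371 genes were higher and 243 (10.2%) lower. Against all other CMs, whose depth was not matched, 547 (5.07%) of 10787 genes were higher and 864 (8.01%) lower.

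Genes of the ventricular conduction system were higher in members. Of the 23 genes of the list, 6 passed the filter on low counts, of which 4 were higher and 1 was lower (6.38 and 8.45% over all genes tested), with a median log2 fold change of 1.64 against 0.0092 over all genes tested. Etv1, a transcription factor of fast-conducting muscle, had 72.2, 83.7, 77.4, 110.3, 237 and 120.5 CPM in members and 24.9, 18.6, 0, 12.7, 16.3 and 15.0 in partners (log2 fold change 2.54 ± 0.26 SE, adjusted p = 2.98e-07 by edgeR), and no partner sum reached the level of the filter. The groups did not overlap, and P5-2n members stood highest. Id2, an inhibitor of helix-loop-helix factors, had 138, 130.2, 210.1, 217, 232 and 286 CPM in members and 74.7, 79.1, 0, 34.8, 36.7 and 22.6 in partners (log2 fold change 1.73 ± 0.26 SE, adjusted p = 6.27e-05 by edgeR), with the lowest member values and the highest partner values both at E16.5. Igfbp5, a secreted binding protein of insulin-like growth factors, was also higher (log2 fold change 1.55 ± 0.19 SE, adjusted p = 4.34e-06 by edgeR). Kcne1, a potassium channel subunit, was lower in 5 of 6 libraries and higher in P1-2n (log2 fold change -0.45 ± 0.14 SE, adjusted p = 0.0296 by edgeR), and it did not pass in 11 of 25 alternatives, among them without TMM factors (adjusted p = 0.14), in DESeq2 (adjusted p = 0.214) and without P5-2n, P1-4n or either E16.5 library.

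Several conduction genes were too rare to pass that filter, so their UMIs are given first. Cntn2, a cell adhesion protein that marks Purkinje cells, had 0, 0, 6, 16, 17 and 5 UMIs in members and 0, 0, 0, 1, 0 and 0 in partners. It was thus not detected in 259 members at E16.5, where 0 UMIs allow up to 6.19 CPM in the 2n and 6.98 in the 4n library, and was found in members of all 4 postnatal libraries. Scn10a, a sodium channel gene, had 0, 4, 3, 5, 7 and 9 UMIs in members and none in partners. Irx3 had 23, 24, 4, 15, 6 and 1 UMIs in members and 7, 3, 0, 7, 6 and 2 in partners, and Irx5 15, 14, 3, 20, 17 and 3 against 1, 3, 0, 7, 4 and 1. Both belong to the Iroquois factors that pattern the ventricular conduction system, and Irx3 was not higher in the P5 libraries. In an edgeR fit without the filter, in which 2.05% of 14506 genes were higher and 2.57% lower, 15 of the 23 conduction genes were higher and 1 lower, among them Cntn2 (adjusted p = 8.24e-08), Scn10a (adjusted p = 3.19e-05), Irx3 (adjusted p = 0.00241), Irx5 (adjusted p = 1.36e-05), Tbx5 (adjusted p = 0.00451), Ntm (adjusted p = 1.46e-10), Smoc2 (adjusted p = 8.93e-06) and Cacna1h (adjusted p = 0.0014). Tbx3, a T-box repressor of the central conduction system, had 21 UMIs in members and 3 in partners (adjusted p = 0.0697). Most genes of that fit did not pass the filter on low counts. How far its p-values measure spread over the libraries was not tested, and they are to be read with that limit. The pacemaker channel gene Hcn4 was near absent, with 2 UMIs in all members, both in E16.5-4n. The summed list reached 989.8, 1123, 1968, 1417, 2210.3 and 1973 CPM in members and 577, 682, 588, 774, 999.5 and 805 in partners, higher in members of each library, with Kcne1 as its most abundant gene.

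Trabecular genes outside the rule were higher as well. Of 9 genes, 5 were tested and 4 were higher, none lower (6.38 and 8.45% over all genes tested), with a median log2 fold change of 1.15. Without the filter 6 of the 9 were higher and 1 lower (2.05 and 2.57% over all genes). The same counts held against all other CMs (5.07 and 8.01%) and with the 2n and 4n sums of each age added up (253 and 298 of 6029 genes). With Slit2 or Bmp10 left out of the rule 4 of 5 were higher and 1 lower (191 and 247 of 2534 genes, and 240 and 278 of 2949). In DESeq2 3 of 5 were higher and 0 lower (110 and 193 of 3667). Nppa, the gene of the atrial natriuretic peptide, had 10436, 11222, 6613, 3121, 1024 and 6371 CPM in members and 1419, 2162, 755, 2202, 494 and 639 in partners (log2 fold change 2.04 ± 0.25 SE, adjusted p = 5.10e-06 by edgeR). Members exceeded their partners in each library, by least in P1-4n and P5-2n, where 1 partner of P1-4n held 521 UMIs against a median of 1, and the P5-2n members lay below the partners of both E16.5 libraries and of P1-4n. The P5-4n value rests on few cells: 1 member held 503 of the 846 Nppa UMIs, and 5 members held 96.2%. At E16.5, in contrast, 89 of 146 and 66 of 113 members had at least 10 Nppa UMIs. Cited1, a transcriptional coactivator of trabecular muscle, had 1033, 963, 309.6, 195, 159 and 166 CPM in members and 371, 265, 222, 112, 77.5 and 90.2 in partners (log2 fold change 1.22 ± 0.15 SE, adjusted p = 4.94e-06 by edgeR) and was lower after birth in both. Cdkn1c (p57), an inhibitor of the cell cycle, had 212, 374, 88.5, 55.1, 32.6 and 22.6 against 91.3, 205, 0, 14.2, 4.08 and 0 CPM (log2 fold change 1.15 ± 0.19 SE, adjusted p = 2.11e-04 by edgeR), and Adamts1, a protease that cleaves the matrix between trabeculae and endocardium, was higher by 0.82, adjusted p = 0.00708. Nppb, the gene of the brain natriuretic peptide, was not called in the main fit (log2 fold change -0.41 ± 0.21 SE, adjusted p = 0.225 by edgeR), with 621, 419, 22.1, 161, 122 and 331 CPM in members and 517, 347, 88.8, 209, 571 and 369 in partners. Nppb was higher than in partners in the E16.5 libraries and lower in the other 4.

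**Figure D3:**
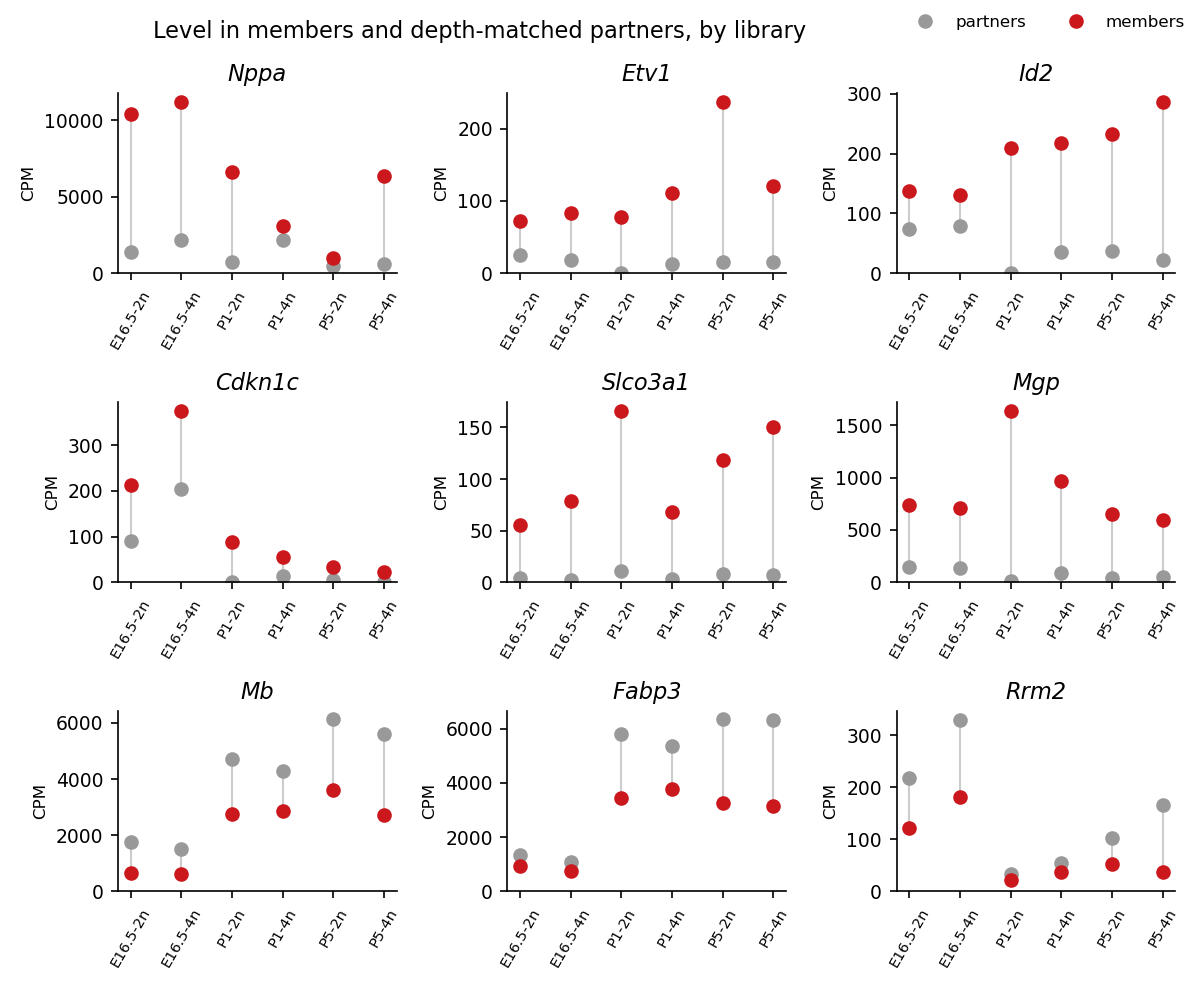
CPM (y axes, from 0) of 9 genes in members (red) and depth-matched partners (grey) of each library (x axes). Nppa, Etv1, Id2, Cdkn1c, Slco3a1 and Mgp lie higher in members of each library, and Mb, Fabp3 and Rrm2 lower.

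The myosin light chains of the atrium were higher and those of the ventricle slightly lower. Myl7, the atrial regulatory light chain, had 1619, 1589, 509, 347, 1268 and 52.7 CPM in members and 558, 528, 66.6, 69.6, 167 and 22.6 in partners (log2 fold change 1.85 ± 0.14 SE, adjusted p = 3.13e-09 by edgeR). Members lay above partners in each library, yet in P5-2n 5 of the 65 members held 273 of the 311 Myl7 UMIs (87.8%). Myl4, the atrial essential light chain, which embryonic ventricles also use, had 3683, 3082, 288, 347, 709.6 and 60.2 CPM against 1875, 1833, 111, 83.8, 81.6 and 30.1 (log2 fold change 1.23 ± 0.17 SE, adjusted p = 2.55e-05 by edgeR). These were the 2 tested of 13 atrial genes. Among the rest, Stard10 had 12, 20, 21, 94, 38 and 38 UMIs in members and 2, 1, 0, 7, 3 and 0 in partners (adjusted p = 9.91e-34 without the filter), and Sln, the atrial inhibitor of the calcium pump, 39, 40, 0, 4, 1 and 0 against 13, 1, 0, 0, 3 and 0, nearly all of it at E16.5. The p-value of Stard10 lies far below the smallest adjusted p of the main edgeR fit, 1.22e-09 for Mgp. How far it measures spread over the libraries was not tested. In the edgeR fit without the filter, 7 of the 13 atrial genes were higher and 0 lower (2.05 and 2.57% over all genes). Some atrial genes, transcription factors among them, were near 0: members held 5 UMIs of Nr2f1, 14 of Nr2f2, 7 of Mybphl and 5 of Kcna5 in all. Of 8 genes of ventricular working muscle, 5 were tested and 3 were lower, none higher (8.45 and 6.38% over all genes tested): Myl2 (-0.32, adjusted p = 5.52e-04), Myl3 (-0.39, adjusted p = 1.04e-04) and the compact wall factor Hey2 (-0.86, adjusted p = 0.00796). Myl2, the ventricular regulatory light chain, still had 9731, 8171, 9864, 11160.4, 11174 and 10482 CPM in members and 10636, 8856, 12197, 12084, 12704 and 12424 in partners. Hey2 had 43.3, 58.1, 55.3, 34.7, 4.08 and 22.6 CPM in members and 87.1, 97.7, 77.7, 49.0, 28.6 and 15.0 in partners, lower in 5 libraries and higher in P5-4n, and it did not pass in DESeq2 (adjusted p = 0.0687) or with Cacna2d2 left out of the rule (adjusted p = 0.113). Gja1, the connexin of working muscle, was not called (-0.16, adjusted p = 0.403), and Tbx20, the other tested gene of the compact wall list of 4, was not called (-0.45, adjusted p = 0.0998). The label of trabecular and conduction-like CMs thus met its markers in part. Hcn4 was near absent, Cntn2 was not detected at E16.5, and the atrial light chain genes and others of the atrial list were higher as well.

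Among all genes tested, those of largest fold that kept 1 direction in 6 of 6 libraries (7.91% of the genes were higher in members of all 6 and 10.3% lower) included few textbook conduction genes. Slco3a1, an organic anion transporter, had 55.7, 79.1, 166, 67.8, 118 and 151 CPM in members and 4.15, 2.33, 11.1, 3.16, 8.16 and 7.52 in partners (log2 fold change 3.99 ± 0.29 SE, adjusted p = 3.13e-09 by edgeR). Myl1, a light chain gene best known from fast skeletal muscle, had 404, 619, 299, 219, 509.8 and 392 CPM against 91.3, 18.6, 0, 22.1, 12.2 and 0 (log2 fold change 3.47 ± 0.28 SE, adjusted p = 9.04e-09 by edgeR). The groups of neither Slco3a1 nor Myl1 overlapped. Irx2, an Iroquois factor, had 43.3, 58.1, 77.4, 63.0, 118 and 37.7 CPM in members and 6.22, 6.98, 11.1, 1.58, 8.16 and 0 in partners (log2 fold change 3.44 ± 0.34 SE, adjusted p = 2.03e-07 by edgeR). With 10 UMIs in all partners it did not pass the filter on the mean over all sums. Mgp, an inhibitor of calcification in the extracellular matrix, had 740.3, 709, 1637, 964, 648 and 595 CPM in members and 143, 135, 11.1, 93.3, 40.8 and 52.6 in partners (log2 fold change 2.96 ± 0.19 SE, adjusted p = 1.22e-09 by edgeR), highest in members of P1-2n. Of these genes Mgp had the most UMIs, 1662 in members and 204 in partners. Gpx3, a secreted glutathione peroxidase (2.64, adjusted p = 2.95e-09), Sparcl1, a matrix glycoprotein (2.25, adjusted p = 5.55e-09), the phosphodiesterase Mpped2 (2.12, adjusted p = 2.03e-07) and the long non-coding RNA Crnde (2.31, adjusted p = 1.79e-05), which lies beside Irx5, were higher too.

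Few signalling genes around the markers could be tested. Of 26 genes of trabeculation signalling (neuregulin, Notch, BMP and matrix), 9 were tested, 2 were higher and 1 was lower (6.38 and 8.45% over all genes tested), with a median of 0.08. Vcan, the proteoglycan versican of the cardiac jelly, had 210.3, 239.6, 254, 147, 192 and 181 CPM in members and 60.2, 90.7, 11.1, 25.3, 16.3 and 22.6 in partners (log2 fold change 2.02 ± 0.20 SE, adjusted p = 2.03e-07 by edgeR), without overlap. Nrg1 was not detected in members, and its receptor genes Erbb2 (55 UMIs in members, 30 in partners) and Erbb4 (30 and 24) were not called without the filter (adjusted p = 0.362 and 0.956). Of 18 genes of Slit and semaphorin signalling other than Slit2 and Sema3c, 1 was tested and not called. Without the filter 3 of 16 were higher (2.05% over all genes): Sema3a, a further secreted semaphorin, with 19, 13, 0, 15, 7 and 5 UMIs in members and 2, 1, 0, 2, 0 and 0 in partners (adjusted p = 1.85e-08), Slit3 (adjusted p = 0.00431) and Robo1, a Slit receptor (adjusted p = 0.00427). Of 28 paralogues of the markers, 4 were tested, and 1, the lactate transporter Slc16a1, was lower (-0.62, adjusted p = 0.0127). Bmp2 had 6, 12, 4, 10, 4 and 5 UMIs in members and 0, 2, 0, 0, 0 and 0 in partners (adjusted p = 9.69e-07 without the filter), and 11 of the 28 paralogues, Bmp4 and Cacna2d3 among them, had no UMI in members.

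Of 27 ion channel genes, 4 were tested, 2 were higher and 1 was lower (6.38 and 8.45% over all genes tested). Kcnh2, the channel of the rapid repolarising current, was among those higher (0.67, adjusted p = 0.0325). The lower gene was Kcne1, which did not pass in several alternatives, as given above. Of 12 calcium cycling genes, 10 were tested, 3 were higher and 2 lower (6.38 and 8.45% over all genes tested). Those higher were Casq2 (0.32, adjusted p = 0.0188), Trdn (0.43, adjusted p = 0.00152) and Hrc (0.59, adjusted p = 0.0237), which store calcium in the sarcoplasmic reticulum and couple the store to the release channel. Those lower were the release channel Ryr2 (-0.51, adjusted p = 0.00661) and the pump Atp2a2 (-0.33, adjusted p = 0.00707). Atp2a2 had 744, 716, 1692, 1888, 2439 and 2402 CPM in members and 989.6, 819, 2597, 2047, 2436 and 2249 in partners, with nearly equal levels in P5, and it did not pass without TMM factors (adjusted p = 0.103), where 4 of the 10 genes were higher and 1 lower (9.98 and 4.36% over all genes tested).

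Most of the cell cycle genes tested were lower in members. Of 24 cycling markers, 11 were tested, and 9 were lower and none higher (8.45% of all genes tested were lower), with a median log2 fold change of -0.78. Rrm2, a subunit of ribonucleotide reductase needed for DNA synthesis, had 122, 181, 22.1, 36.2, 53.0 and 37.7 CPM in members and 218, 330.4, 33.3, 55.4, 102 and 165.4 in partners (log2 fold change -0.99 ± 0.15 SE, adjusted p = 7.05e-05 by edgeR), lower in members of each library. Ccnb1, the mitotic cyclin, had 41.2, 79.1, 0, 17.3, 0 and 67.8 CPM in members and 20.7, 265, 0, 44.3, 4.08 and 90.2 in partners (log2 fold change -1.13 ± 0.29 SE, adjusted p = 0.0113 by edgeR), lower in members of P5-2n and of each 4n library and higher in those of E16.5-2n. Most of the difference in UMIs lay in E16.5-4n, where the summed list had 2042 CPM in members and 4316 in partners, against 1111 and 1214 in E16.5-2n. The sum was lower in members of each library but P1-2n, where it was 276 CPM in members and 222 in partners. Without E16.5-4n 2 of 8 tested genes were lower, with a median of -0.52 (226 of all 2778 genes tested there were lower). Without TMM factors 5 of 11 were lower (4.36% over all genes tested), and in DESeq2 4 of 11 (193 of 3667 genes). With Slit2 left out of the rule 3 of 8 were lower (247 of 2534 genes).

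Genes of the mature working CM and of fatty acid use were lower in members, and the sum of either list was lower in members of each library. Of 12 mature genes, 11 were tested and 7 were lower, none higher, with a median of -0.40 (over all genes tested 8.45% were lower and 6.38% higher), and of 20 genes for taking up and oxidising fatty acids, 17 were tested and 11 were lower, none higher, with a median of -0.46. The lists share Fabp3. Mb (myoglobin), which stores oxygen, had 662, 628, 2765, 2876, 3593 and 2733 CPM in members and 1757, 1498, 4728, 4285, 6132 and 5603 in partners (log2 fold change -1.09 ± 0.08 SE, adjusted p = 3.22e-09 by edgeR). Fabp3, the fatty acid binding protein of heart muscle, had 938, 758, 3461, 3794, 3262 and 3163 CPM against 1328, 1091, 5815, 5372, 6356 and 6339.7 (log2 fold change -0.85 ± 0.08 SE, adjusted p = 2.03e-07 by edgeR). Members lay below their partners in each library for both genes, while both genes rose from E16.5 to P1 in members and partners alike. Ckm, the muscle creatine kinase (-0.63, adjusted p = 2.94e-06), Acsl1, which activates fatty acids (-0.82, adjusted p = 1.60e-04), Acadl (-0.46, adjusted p = 0.00342) and Hadha (-0.49, adjusted p = 0.00617), enzymes of fatty acid oxidation, were lower too. Fabp3-ps1, a processed pseudogene of Fabp3, was called lower (-0.89, adjusted p = 1.91e-05), but whether reads counted for it came from Fabp3 was not tested. Without TMM factors 6 of the 11 mature and 10 of the 17 fatty acid genes were lower (4.36% over all genes tested). Of 20 genes of glycolysis, 18 were tested, 2 were higher and 5 lower (6.38 and 8.45% over all genes tested in the main fit). Those higher were Ldha (0.32, adjusted p = 0.0268) and Pgam1 (0.42, adjusted p = 0.019), and those lower included Gapdh (-0.41, adjusted p = 3.43e-04) and Aldoa (-0.43, adjusted p = 9.72e-04).

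Of 10 fetal CM genes, all were tested, 3 were higher (Myl4, Myl7 and Nppa, each named above) and 3 were lower, against 6.38 and 8.45% over all genes tested: Tnni1, the fetal troponin I (-0.38, adjusted p = 4.72e-04), and the skeletal and smooth muscle actins Acta1 (-1.28, adjusted p = 1.68e-04) and Acta2 (-0.76, adjusted p = 8.54e-05). Acta1 had the lowest log2 fold change of the genes named by size, with 49.5, 34.9, 66.4, 23.6, 36.7 and 30.1 CPM in members and 97.5, 93.1, 66.6, 41.1, 114 and 128 in partners, nearly equal in P1-2n with 6 UMIs each and lower in members of the other 5 libraries. Others of the largest decreases were Lmod3, an actin nucleator of the sarcomere (-1.14, adjusted p = 4.66e-04), Ddc, the aromatic amino acid decarboxylase (-1.05, adjusted p = 7.05e-05), Hn1 (-0.89, adjusted p = 9.06e-06), Ptgds, a prostaglandin D synthase (-0.88, adjusted p = 3.16e-05), Nceh1 (-0.99, adjusted p = 0.00707), Ndufaf1, an assembly factor of respiratory complex I (-0.93, adjusted p = 0.0127), Fblim1 (-0.90, adjusted p = 0.0293) and Mad2l1, a gene of the spindle checkpoint (-0.87, adjusted p = 0.0257).

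**Figure D4:**
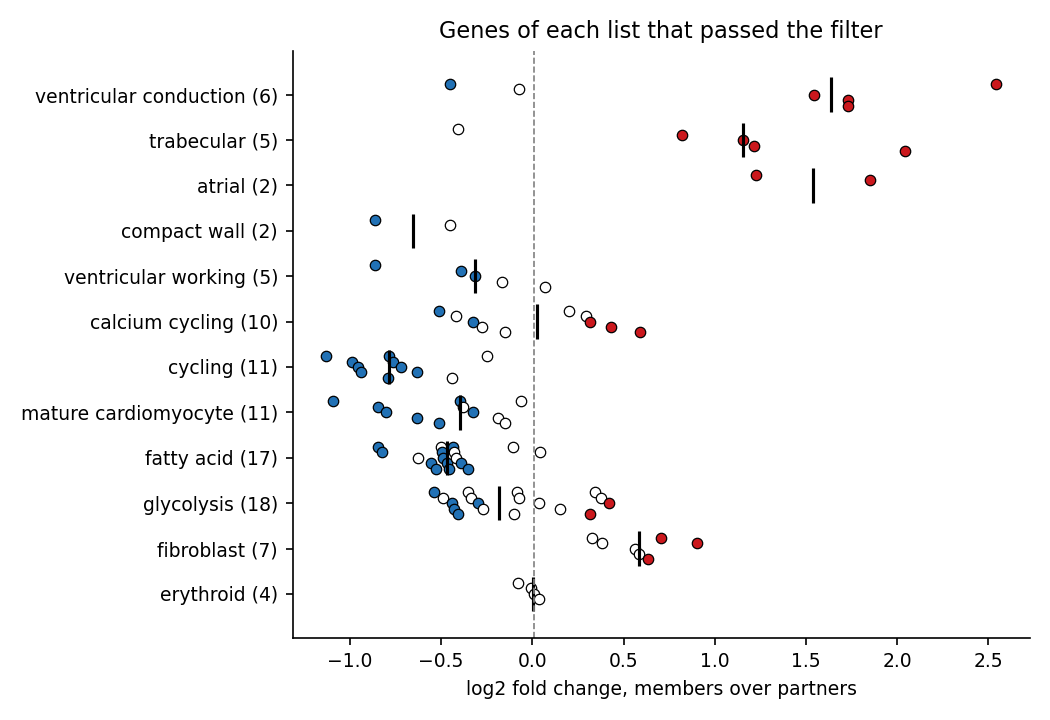
log2 fold change of members over partners (x axis) for the genes of 12 lists that passed the filter (number in brackets), 1 point per gene. Red points passed an adjusted p of 0.05 as higher and blue points as lower, open points did not pass, black lines are list medians and the dashed line is the median of all 3667 genes tested. The medians of the conduction, trabecular and atrial lists lie to the right, though Kcne1 and Nppb lie to the left, and those of the cycling, mature and fatty acid lists to the left.

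Markers of other cell types were found in members and in partners. Of 9 fibroblast genes 7 were tested and 3 were higher (6.38% over all genes tested): Col1a1 (0.63, adjusted p = 0.0157), Col1a2 (0.70, adjusted p = 0.00611) and Col3a1 (0.90, adjusted p = 7.44e-04). With at least 3 markers asked of members, Col1a1 (-0.35) and Col1a2 (-0.24) were on the other side of 0 and did not pass. The fibroblast list summed to 386, 1007, 88.5, 1497, 1582 and 1062 CPM in members and 351, 763, 33.3, 944, 379 and 504 in partners, higher in members of each library and most so in P5-2n, with Col3a1 as its most abundant gene (640 UMIs) and no marker at 0. At least 2 UMIs over the endothelial, endocardial, fibroblast, mural, epicardial and immune lists were found in 21.9, 46.0, 22.6, 61.5, 33.8 and 57.7% of members and in 13.7, 37.2, 3.23, 52.7, 27.7 and 23.1% of partners. None of the 10 endothelial genes (sum 41.2, 142, 77.4, 213, 302 and 377 CPM in members and 16.6, 165.2, 22.2, 207, 171 and 143 in partners, Cdh5 most abundant with 77 UMIs), 7 arterial endothelial, 5 endocardial, 8 mural, 7 epicardial, 6 erythroid and 5 Schwann and neural genes was called. Of these, 1 endothelial, 1 mural and 4 erythroid genes were tested in the main fit. The arterial endothelial genes summed to 28.9, 55.8, 11.1, 53.6, 61.2 and 52.7 CPM in members and 18.7, 46.5, 0, 25.3, 8.16 and 22.6 in partners. Without the filter 1 of these 7 was higher and none lower (2.05 and 2.57% over all genes). Against all other CMs 1 of 4 arterial endothelial, 2 of 10 endothelial and 2 of 6 mural genes were higher and none lower (5.07 and 8.01%). Erythroid genes, with Hbb-bs most abundant, summed to 4920.0, 8985, 1017, 4141, 3613 and 3456 CPM in members and 5805, 8956, 988, 2249.5, 7103 and 985 in partners, without 1 direction. In the Schwann and neural list Sox10 had no UMI in members. With all cells of at least 2 such UMIs left out, other than through Lyz2, 323 members were left and 172 of 1896 genes were higher (9.07%) and 205 lower (10.8%). There 3 of 5 tested conduction genes were higher and 1 was lower. Of 3 tested trabecular genes 2 were higher, as were both atrial genes, while all 4 tested cycling genes and 11 of 17 fatty acid genes were lower. No fibroblast gene could be tested there, and the part of the cells left out in the collagen result was not tested.

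Lyz2, the macrophage lysozyme, was the immune gene that could be tested, and it was higher. It had 169, 41.9, 133, 59.9, 57.1 and 52.7 CPM in members and 4.15, 14.0, 0, 1.58, 8.16 and 0 in partners (log2 fold change 3.75 ± 0.38 SE, adjusted p = 3.41e-07 by edgeR). E16.5-2n and P1-2n members were the highest. With 11 UMIs in all partners it did not pass the filter on the mean over all sums. The immune list of 8 summed to 169, 48.8, 144, 109, 114 and 52.7 CPM in members and 8.30, 25.6, 0, 58.5, 8.16 and 15.0 in partners. Lyz2 had 171 UMIs in all members, C1qb 16, Fcer1g 12, Csf1r and Tyrobp 7 each, C1qa 4, Ptprc 3 and Cd68 none. Most UMIs of the genes other than Lyz2 lay in P1-4n and P5-2n, where they summed to nearly as much as Lyz2 or as much.

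Levels by the number of markers a CM carried are given as a description, since the markers chose the cells. Averaged over the libraries, Nppa had 1259.5, 2588, 4978 and 8533 CPM in CMs with 0, 1, 2 and at least 3 markers. Etv1 had 13.9, 42.3, 97.1 and 152 CPM, Slco3a1 5.77, 19.2, 73.1 and 162 and Mgp 74.5, 233, 693 and 1285 in the same order. CMs with 1 marker, just outside the rule, thus lay between CMs with none and members with 2. Mb went down, with 4068, 3393, 2375 and 1989 CPM, as did Rrm2 with 166, 133, 89.2 and 52.2. Myl7 did not follow this order, with 248, 589, 1019 and 628 CPM, higher with 2 markers than with 3 or more, and neither did Myl4, Sln, Cdkn1c and Igfbp5 nor, from 2 markers on, the lower genes Ckm, Top2a and Acta1. Depth did not follow the number of markers alike in all libraries. In E16.5-4n the median was 2117.5 UMIs with no marker, 2828 with 1, 3269 with 2 and 3787 with at least 3, whereas in P5-2n it was 3762.5, 3823.5, 2539.5 and 2497, and the part of depth in these averages was not tested.

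Levels of other genes are also given by the marker a member carried. A member needs 2 markers, so one that lacks a marker must carry others, and contrasts between markers are in part fixed by the rule. Among the 259 E16.5 members, the 81 with Cacna2d2 had 2915 CPM of Myl7 and those without it 1087, and the 66 with Cpne5 had 2723 against 1192. The 136 with Slit2 had 1021 against 2314 CPM in those without. Sln showed the same contrast, with 216 CPM with and 35.1 without Cacna2d2, but 13.9 with and 174 without Slit2. It rests on few cells, since 7 members of the 2n and 5 of the 4n library had any Sln UMI. In these sums both atrial genes were higher with Cacna2d2 and Cpne5 and lower with Slit2, Bmp10 and Gja5. Nppa was highest in the 38 members with Slc16a12 (15815 CPM against 9937) and in the 137 with Bmp10 (12919 against 8568), and lowest in the 34 with Sema3c (6080.3 against 11527). Lyz2 went with Slc16a12 (281 against 79.5 CPM) and Cacna2d2 (274 against 44.2). Few cells weigh on these values, since 5 members held 36 of the 82 Lyz2 UMIs of E16.5-2n and 5 held 12 of the 18 of E16.5-4n. At P5 Myl7 was again split by marker, with 3339 CPM in the 18 members with Cacna2d2 and 29.2 in the 43 with Gja5. This rests on few cells, since 5 members held 273 of the 311 Myl7 UMIs of P5-2n and P5-4n members held 7 in all. At that age Cntn2 had 63.2 CPM with and 52.3 without Gja5 and Etv1 185 and 209. These are sums over cells of 2 libraries and were not tested.

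**Figure D5:**
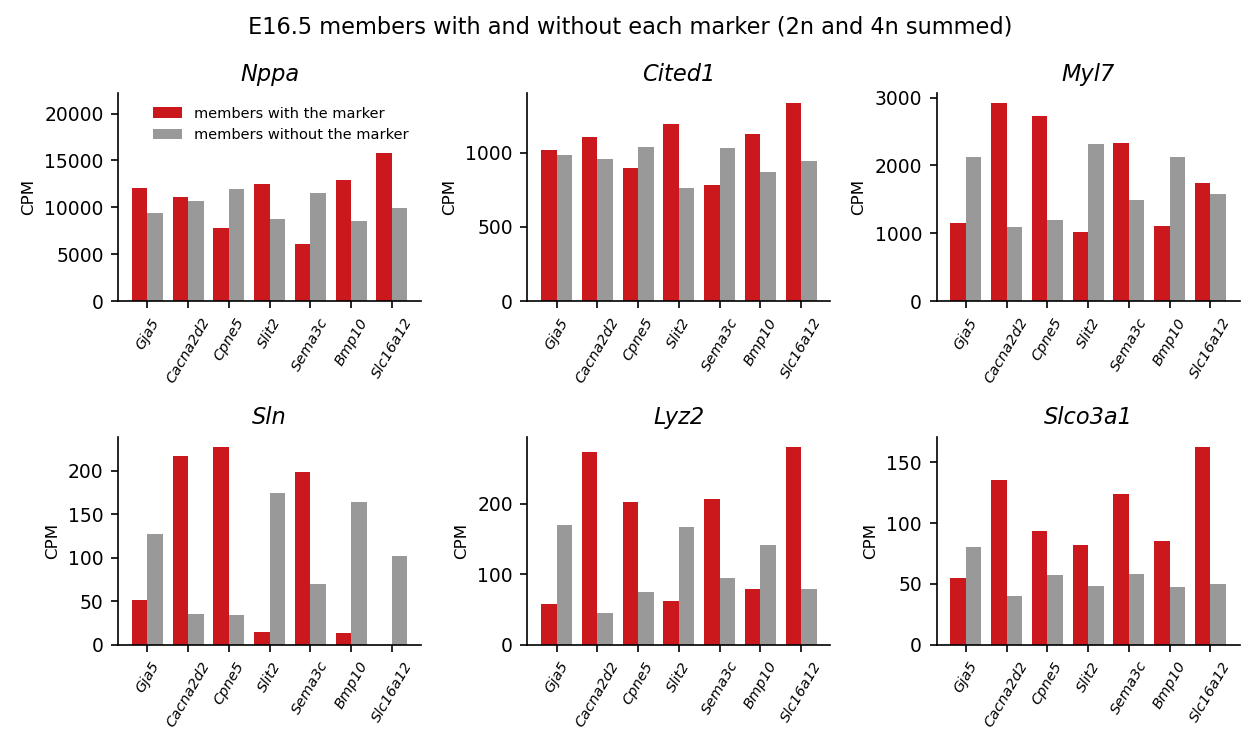
CPM (y axes, from 0) of 6 genes in the 259 E16.5 members with (red) and without (grey) each marker (x axes), UMIs of both libraries summed. Myl7 and Sln are higher with Cacna2d2, Cpne5 and Sema3c and lower with Slit2, Bmp10 and Gja5, and Nppa is lowest with Sema3c.

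The difference between members and partners was finally tested for a change with ploidy and with birth. By ploidy, none of 3667 genes (0%) passed an adjusted p of 0.05 in edgeR, with 126 at an unadjusted p under 0.05, and none in DESeq2, with 17. When the 2n and 4n libraries of each age were paired in edgeR (chosen after seeing the data), 2 genes passed (0.0545%), Ube2c (-1.61 on the log2 scale, adjusted p = 0.0162) and Arl6ip1 (-1.995, adjusted p = 0.0162), both with a lower log2 ratio of members over partners in 4n. With all other CMs in place of the partners, 9 of 10787 genes passed (0.0834%), each with a lower log2 ratio of members over other CMs in the 4n libraries, among them Col1a1, Col1a2 and Col3a1 of the fibroblast list (named after their values were seen). By birth, 5 genes (0.136%) passed, 3 with a higher log2 ratio of members over partners after birth (0.0818%) and 2 with a lower one (0.0545%), with 305 at an unadjusted p under 0.05. Myh6, the adult alpha myosin heavy chain, had 509, 539.6, 2179, 2141, 2255 and 2469.9 CPM in members and 365, 277, 2575, 2352, 2554 and 2685 in partners. Members were above partners in both E16.5 libraries and below them in the 4 postnatal ones (log2 difference -0.98, adjusted p = 0.00489). Id2 rose in members over partners by more after birth (1.99, adjusted p = 0.0158), as did Myl4 (1.30, adjusted p = 0.0158) and Crip1, a LIM domain protein (1.20, adjusted p = 0.0402). Ankrd1, a stress-sensitive ankyrin repeat protein of the sarcomere, was near its partners at E16.5 and lower in members after birth (-0.98, adjusted p = 0.0398), with 2462, 2089, 409, 613, 795 and 1039 CPM in members and 2359, 1831, 499, 774, 2019 and 1752 in partners. DESeq2 called 1 of the 5, Myh6. With 2 embryonic libraries from the same litters and 4 postnatal ones, age cannot be told apart from other differences between those libraries.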

How the data were processed

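The authors processed the reads of 6 libraries with Cell Ranger, whose version is not given in the sources used here, with STAR and the genome GRCm38 (mm10), per the submitters' processing notes, and the deposited values are UMI counts of the called cells, not normalized. A list of gene symbols and the authors' own comparison of cycling cells at E16.5 and P5 (p-values and fold changes) were not used. Among 27998 genes, 56 symbols stand for more than 1 gene, and these genes were kept apart by their identifiers in the fits. Genes outside the lists that share sequence with others are uncertain, since only reads placed with confidence on the transcriptome were counted, per the authors' methods.

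CMs and members were chosen by UMIs as described above. Each member was paired with the CM of its library, not itself a member, that was nearest in UMIs other than those of the 7 markers, within 10%. Partners could thus carry 1 of the 7 markers, and all 472 members found a partner. UMIs were summed per library and class and tested with edgeR 4.0.16 (R 4.3.3) by glmQLFit and glmQLFTest, with filterByExpr, TMM scaling, the library as a block and Benjamini-Hochberg adjustment over all genes tested at 0.05. The genes of the rule stayed in the totals and out of the tests. Cells of a library are not replicates, and the 6 libraries, each of another condition, are the units, so p-values measure the spread of the paired difference over conditions. How far the p-values of the fit without the filter on low counts do so was not tested. The 2n and 4n libraries of an age came from the same litters, which the fits do not model, and an added alternative summed them. The exact sign-flip test of each marker is not given, since the markers were named from these data. CPM are UMIs per 1000000 of a sum, and 0 UMIs allow up to 3. Intervals are exact (Clopper-Pearson, 95%). Intervals and these limits cover counting error only. DESeq2 1.42.0 was an alternative. On simulated sums of 3553 genes, drawn at a fixed dispersion of 0.05, the test recovered 61 of 88 genes changed by 1 on the log2 scale (69.3%) and 85 of 85 changed by 2. It called 8 of 3380 unchanged ones (0.237%), which were 5.19% of its calls. In the data few cells held most UMIs of some genes, which the simulation did not model, so these rates need not hold there. The authors filtered clumps before sorting, and no doublet caller was run here. CMs above the 95th percentile of UMIs were left out as an alternative.

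The members, the 26 lists (291 genes) and the tests were chosen with earlier results of these data known. Named genes are those of the rule and lists, the 12 of largest and the 12 of smallest log2 fold change among genes with an adjusted p below 0.05, at least 60 UMIs and 1 sign in all 6 libraries, and up to 5 of each interaction by p. Promoter sequences are from RefSeq, with all 7 markers and Nppa matched by symbol. Spatial position, phases and pseudotime were not analysed here. Some genes are not reported here, though they stayed in the counts of genes tested and called.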

Additional observations from a re-analysis of the deposited data

Results flagged for a closer look

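The difference between members and partners changed with birth for 5 genes, by an interaction term in edgeR over 2 embryonic and 4 postnatal libraries. On the log2 scale, after minus before birth, the change was -0.98 for Myh6 and -0.98 for Ankrd1, and 1.30 for Myl4, 1.99 for Id2 and 1.20 for Crip1. For Myh6, members were higher than partners in 2 of 2 embryonic and lower in 4 of 4 postnatal libraries, and it was the gene that DESeq2 called as well. For Myl4, 5 members held 74.7% of the UMIs of P5-2n. For Id2, members were higher than partners in all 6 libraries, and P1-2n partners held no UMI. Crip1 had 639 and 537 CPM in E16.5-2n and E16.5-4n partners, against 621 and 635 in members, and 211 to 370 in postnatal partners, against 588 to 1062 in members.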

How the results depend on the processing

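With 1 library per condition, shares and levels by age or ploidy have no replicate, and the 90426 UMIs of P1-2n members limit that library most. Against 544 genes called, 234 of them higher in members, the counts were 1411 (547 higher) with all other CMs (10787 genes tested), 134 (65) with CMs drawn down to 2000 UMIs (835 tested), 293 (128) without cells with UMIs of other cell types (1768 tested), 377 (172) with Lyz2 not counted among those and 449 (206) with a filter on the mean over all sums (both added after seeing the data, with 1896 and 2371 tested), 211 (98) with at least 3 markers (1314 tested), 671 (298) without a filter, 526 (366) without TMM factors and 303 (110) in DESeq2. Leaving out 1 library at a time, 395 to 488 were called, 171 to 211 of them higher and 224 to 277 lower. With the 2n and 4n sums of each age added up, so that 3 ages were the units (added after seeing the data), 551 of 6029 genes were called, 253 of them higher. By ploidy, in place of 0, 9 genes passed against all other CMs and 2 with the 2n and 4n libraries paired by age (added after seeing the data). By birth, in place of 5, 43 passed against all other CMs, 36 without cells with UMIs of other types and 1 in DESeq2 (added after seeing the data). Fewer cells and genes entered several of these fits, and otherwise the cause was not tested.

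The mean log2 ratio of the marker left out moved by over 1 SD for Cacna2d2 (2.43), Cpne5 (1.32), Sema3c (2.30) and Slc16a12 (1.59) with CMs drawn down to 2000 UMIs, for Cpne5 (4.54), Bmp10 (4.83) and Slc16a12 (4.70) with all other CMs, and for Cpne5 (2.74) with 1 UMI added to each sum. Leaving out 1 library, the means ran from 2.68 for Bmp10 to 4.88 for Sema3c. The share of members was 1.17% without cells with UMIs of other types, 1.31% with Lyz2 not counted, 1.40% without the deepest cells, 0.498% with at least 3 markers, 0.944% at 2000 and 0.407% at 1000 UMIs, and 1.10, 1.31, 1.30, 1.10, 1.31 and 1.16% with Gja5, Cacna2d2, Cpne5, Slit2, Sema3c or Bmp10 left out of the rule. Of the genes named, Col1a1 (-0.35) and Col1a2 (-0.24) changed sign, at 3 or more markers, where neither passed. Members and partners were paired by library, or by age where the sums of an age were added up, and no fit paired samples by replicate number, which the labels do not give.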

Other observations

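Against all other CMs of their library in place of depth-matched partners, 9 genes had a lower log2 ratio of members over other CMs in 4n than in 2n libraries in edgeR, and none a higher one (0.0834% of 10787 genes). They were the collagens Col1a2 (-1.54 on the log2 scale, adjusted p = 2.56e-04), Col1a1 (-1.37, adjusted p = 0.00691) and Col3a1 (-1.12, adjusted p = 0.0196), the matrix gene Mfap2 (-1.48), the surface proteins Cd9 (-1.66) and Cd34 (-2.09), and the mitotic genes Cdc20 (-1.84), Ube2c (-1.34) and Arl6ip1 (-1.24). Against partners the 8 tested had adjusted p-values of 0.421 or above, and Ube2c and Arl6ip1 passed there once the 2n and 4n libraries were paired by age. Markers of other cell types were found in more of the other 4n than 2n CMs at each age, with at least 2 such UMIs in 31.9 against 8.30% at E16.5, 43.9 against 5.17% at P1 and 24.1 against 15.2% at P5. Their part in these values was not tested.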
